A study of Mus musculus with 5 samples.

Results

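The 54 genes described here copy the chromosomes once per cell cycle or admit the cell to that copying. They were chosen by gene name and known role and not by a cut on their values, but with earlier results of these data known. All 54 were found among the 41388 Ensembl IDs of the files. They fall into 12 roles: origin licensing, the MCM helicase, helicase activation, the sliding clamp and its loader, single-strand binding, primase and polymerases, Okazaki fragment joining, nucleotide supply, chromatin assembly and upkeep of DNA methylation, the fork checkpoint, the G1/S cyclins and kinases, and the E2F factors.

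RNA was sequenced from mouse aortic macrophages sorted from 2 layers of the vessel wall. The 3 adventitia libraries came from ApoE-/- mice of the C57BL/6 strain, 6 of which are mentioned for that group, after 28 weeks of high-fat feeding. Their cells were sorted as PI-negative, CD64+ cells from adventitia stripped off the entire aorta, abdominal part included. The 2 intima libraries came from C57BL/6 mice with no mutation named, 5 mice pooled per sample. Those cells were sorted as PI-negative, CD64+, CD11c+ and MHC II+ from the thoracic aorta after the adventitia had been taken off. Diet is not given for the intima samples, and ages are given for neither group. Layer, genotype, aortic segment, gate and any difference in diet therefore cannot be told apart. The labels do not say whether the libraries of a group came from separate mice, so a p-value here reflects variation among these 5 libraries, which may be technical.

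The libraries held 3941381, 10076142 and 10054377 reads in adventitia 1 to 3 and 14970204 and 20806925 reads in intima 1 and 2. The intima libraries were deeper but listed fewer genes with a read, 17489 and 16374 against 23289 to 25738. Apoe, the gene deleted in the adventitia mice, was at 18.02, 18.00 and 10.9 CPM there (read counts scaled to a common library size by TMM) and 5553 and 4393 CPM in the intima libraries, with a log2 difference of 8.31 ± 0.539 (SE, n = 3 and 2) and an adjusted p of 8.33e-05 in edgeR. Fcgr1, which encodes CD64, was at 98.6, 247 and 280.2 CPM in adventitia and 178 and 145 CPM in intima. All 12 core macrophage markers, among them Lyz2 and Csf1r, had at least 3 reads in every library, and their summed level was 22230 to 32390 CPM in adventitia and 31850 and 21130 CPM in intima. Itgax, which encodes CD11c and was part of the intima gate, was at 16.7, 33.6 and 27.1 CPM in adventitia and 73.2 and 273 CPM in intima.

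As background, replication origins are licensed in G1, when the origin recognition complex together with Cdc6 and Cdt1 loads the MCM ring onto DNA. Cyclin D with Cdk4 and cyclin E with Cdk2 phosphorylate the retinoblastoma protein, which frees E2F factors to activate many of the genes listed here. At the start of S phase Cdc45 and the GINS complex turn the MCM ring into a moving helicase, and polymerases follow with the PCNA clamp. Macrophages of the artery wall are known to divide locally as well as to be replaced from blood monocytes.

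All 54 genes passed the low-count filter, and none was called between intima and adventitia at an adjusted p under 0.05 in edgeR's quasi-likelihood test, in which 0.671% of the 13408 genes tested were called, 0.522% higher and 0.149% lower in intima. At an unadjusted p under 0.05 there were 12 of 54, or 22.2%, against 22.4% of all tested genes, so this share was that of the background. Of these 12, Mcm3, Mcm5, Mcm7, Rfc1, Rfc2, Rpa1, Rrm2, Ccnd2, Cdk4 and E2f2 were higher in intima, and Chaf1a and Ccne1 were lower. The lowest adjusted p was 0.0868, for Ccnd2. DESeq2 called 4 of the 54, with Mcm3, Ccnd2 and E2f2 higher and Chaf1a lower, where 8.88% of all genes were called. Limma voom called 1, Chaf1a, where 6.26% were called. With genes kept from 1 read on, edgeR called 3, Mcm3, Mcm5 and Ccnd2 higher, where 1.22% were called.

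The direction of the differences leaned to the intima. The log2 difference was above 0 in 41 of 54 genes, 75.9%, against 53.4% of all tested genes, and its median was 1.39 against 0.14 over all tested genes. In 17 genes, 31.5%, both intima libraries lay above all 3 adventitia libraries, where this was so for 17.8% of all genes. In 3 genes, 5.56%, both intima libraries lay below all adventitia libraries, where this was so for 23.2% of all genes, and 40.9% of all genes had no overlap in either direction. The 3 lower genes were Prim2, Chaf1a and Ccne1. Bulk libraries cannot tell fewer cycling cells from less RNA per cell.

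**Figure D1:**
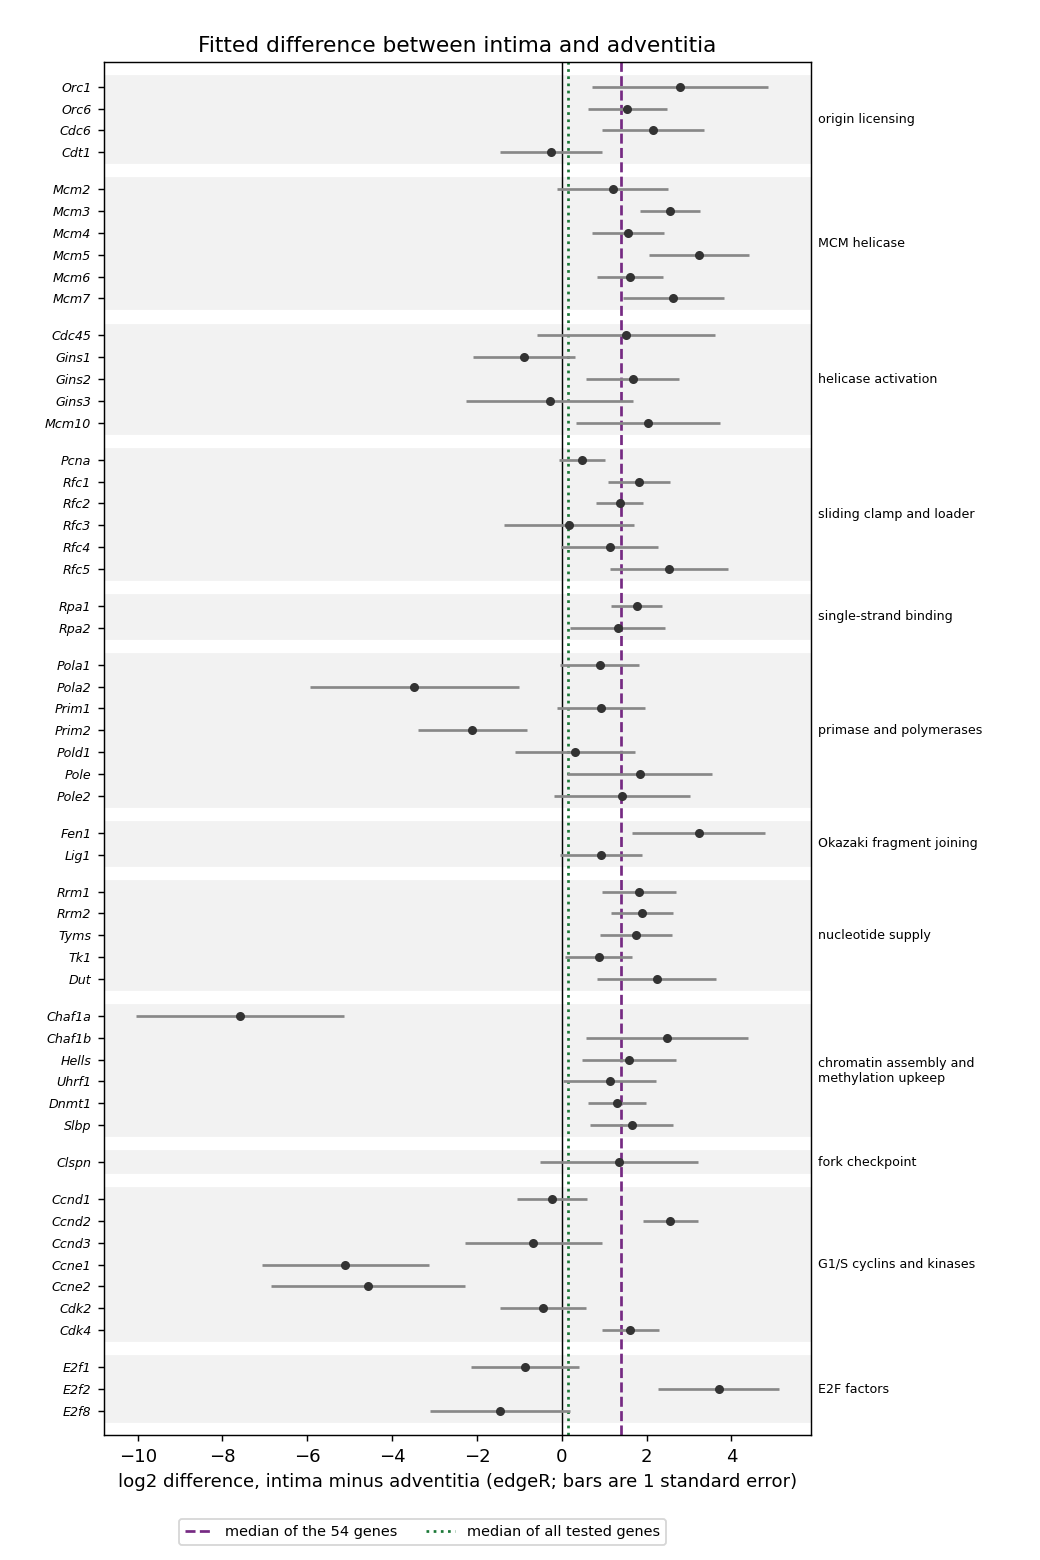
Fitted log2 difference, intima minus adventitia, of each of the 54 genes by role, with bars of 1 standard error; the dashed line is the median of the 54 genes and the dotted line that of all tested genes. Most points lie to the right of 0 and the median is 1.39, but Chaf1a, Ccne1 and Ccne2 lie far to the left, and no gene was called.

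The lean rested mainly on the second intima library. The summed level of the 54 genes was 821.7, 1136 and 1242 CPM in adventitia 1 to 3, 1541 CPM in intima 1 and 4033 CPM in intima 2, which is 2.62 times the sum in intima 1. Intima 1 lay above the adventitia range in 19 of the 54 genes (35.2%, against 33.0% of all tested genes) and below it in 20 (37.0%, against 41.5%), which is near the background. Intima 2 lay above the range in 39 (72.2%, against 37.5%) and below it in 5 (9.26%, against 38.8%). Without intima 2 the median log2 difference of the 54 genes was -0.16, against -0.62 over all tested genes, so it still lay above the background. Without intima 1, with 1 intima library left and the spread taken from adventitia, it was 1.505, against -0.54. In that second case edgeR called 4 genes, Mcm3, Mcm5 and Ccnd2 higher and Ccnd3 lower, where 2.50% of all genes were called.

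**Figure D2:**
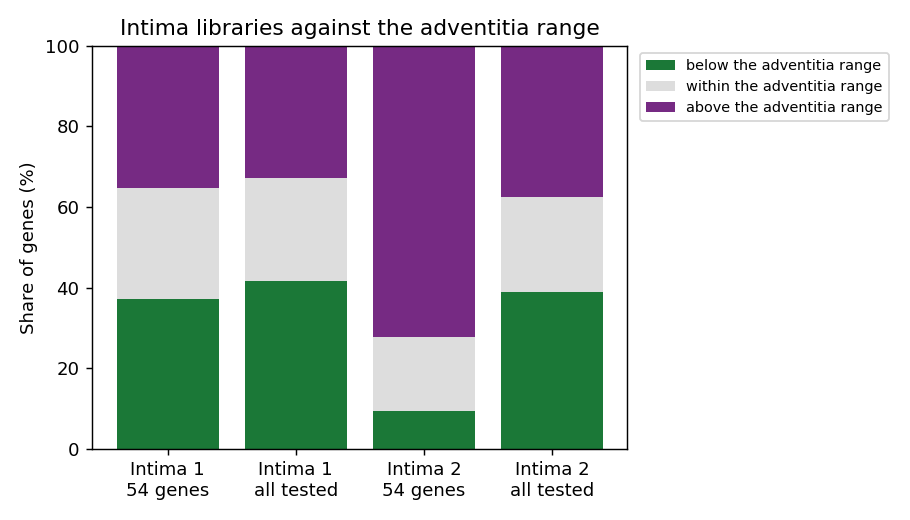
Share of genes, in percent, whose level in intima 1 or intima 2 lay below, within or above the range of the 3 adventitia libraries, for the 54 genes and for all tested genes. The bars for intima 1 are alike for both sets, while in intima 2 the 54 genes lie above the range in 72.2% against 37.5% of all tested genes.

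With 1 library on each side, intima 2 was set against intima 1 without a test. A gene was measured where the higher library had at least 10 reads, a level under 3 reads was set to 3 reads, and a difference counted from 4-fold. Of 51 measured genes 27, or 52.9%, differed by at least 4-fold, against 43.3% of all measured genes. The split was 25 higher in intima 2, where 26.6% of all measured genes were, and 2 lower, where 16.7% were. The ratio was above 1 in 44 of 51 genes, against 53.9% of all measured genes, and its median was 1.88 on the log2 scale against 0.21. Chaf1a, Ccne1 and Ccne2 had too few reads in both intima libraries to be measured. Orc1, Cdc45, Gins3, Mcm10, Rfc3, Pola2, Prim2, Pole, Chaf1b, Clspn and E2f8 had under 10 reads in intima 1. The same was so for Ccnd3 and Pole2 in intima 2. These genes counted as measured through the other library alone. Those with at most 3 reads could only come out higher in that other library. The rule was the same for all measured genes. Between pairs of adventitia libraries, 15 of 52 genes (28.8%, against 21.5% of all measured genes), 18 of 52 (34.6%, against 23.3%) and 12 of 53 (22.6%, against 19.1%) differed by at least 4-fold. Just inside the threshold stood Ccnd2 at 4.501-fold and Mcm3 at 4.91-fold, and just outside it Rrm2 at 3.67-fold.

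**Figure D3:**
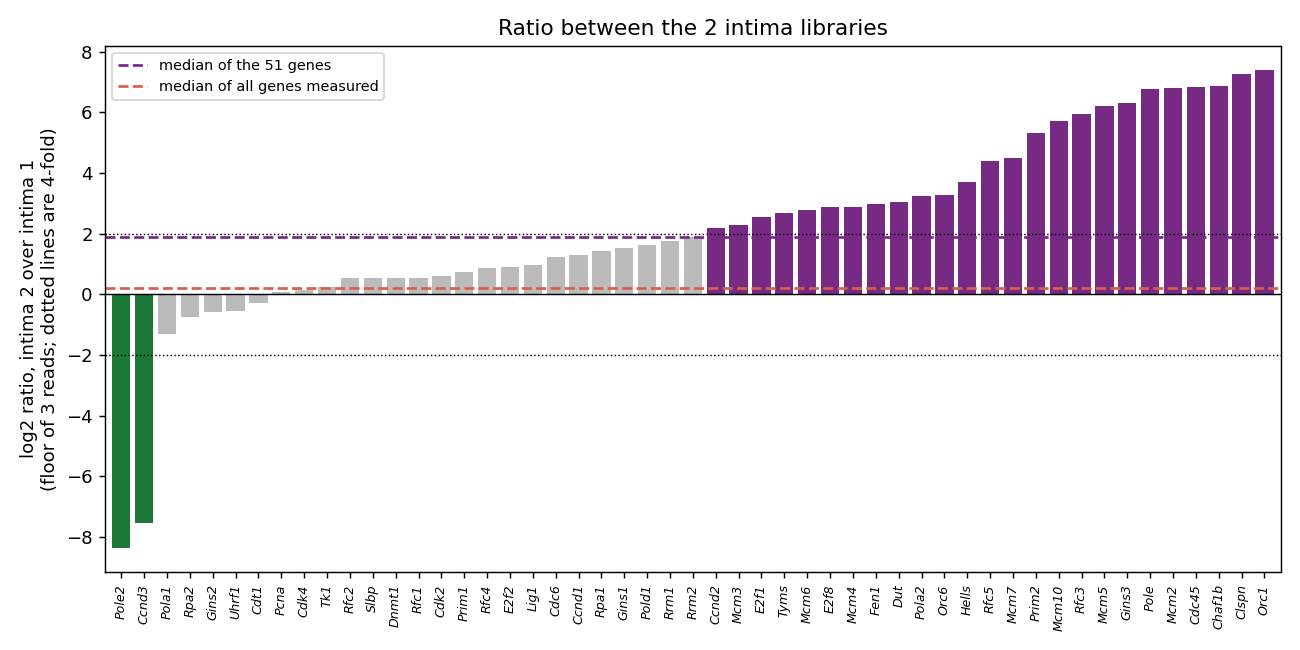
Log2 ratio of intima 2 to intima 1 for the 51 measured genes in rising order, with dotted lines at 4-fold and dashed lines at the medians of the 51 genes and of all measured genes. The 2 bars at the left, Ccnd3 and Pole2, point far down, and 25 bars at the right pass the upper 4-fold line.

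**Figure D4:**
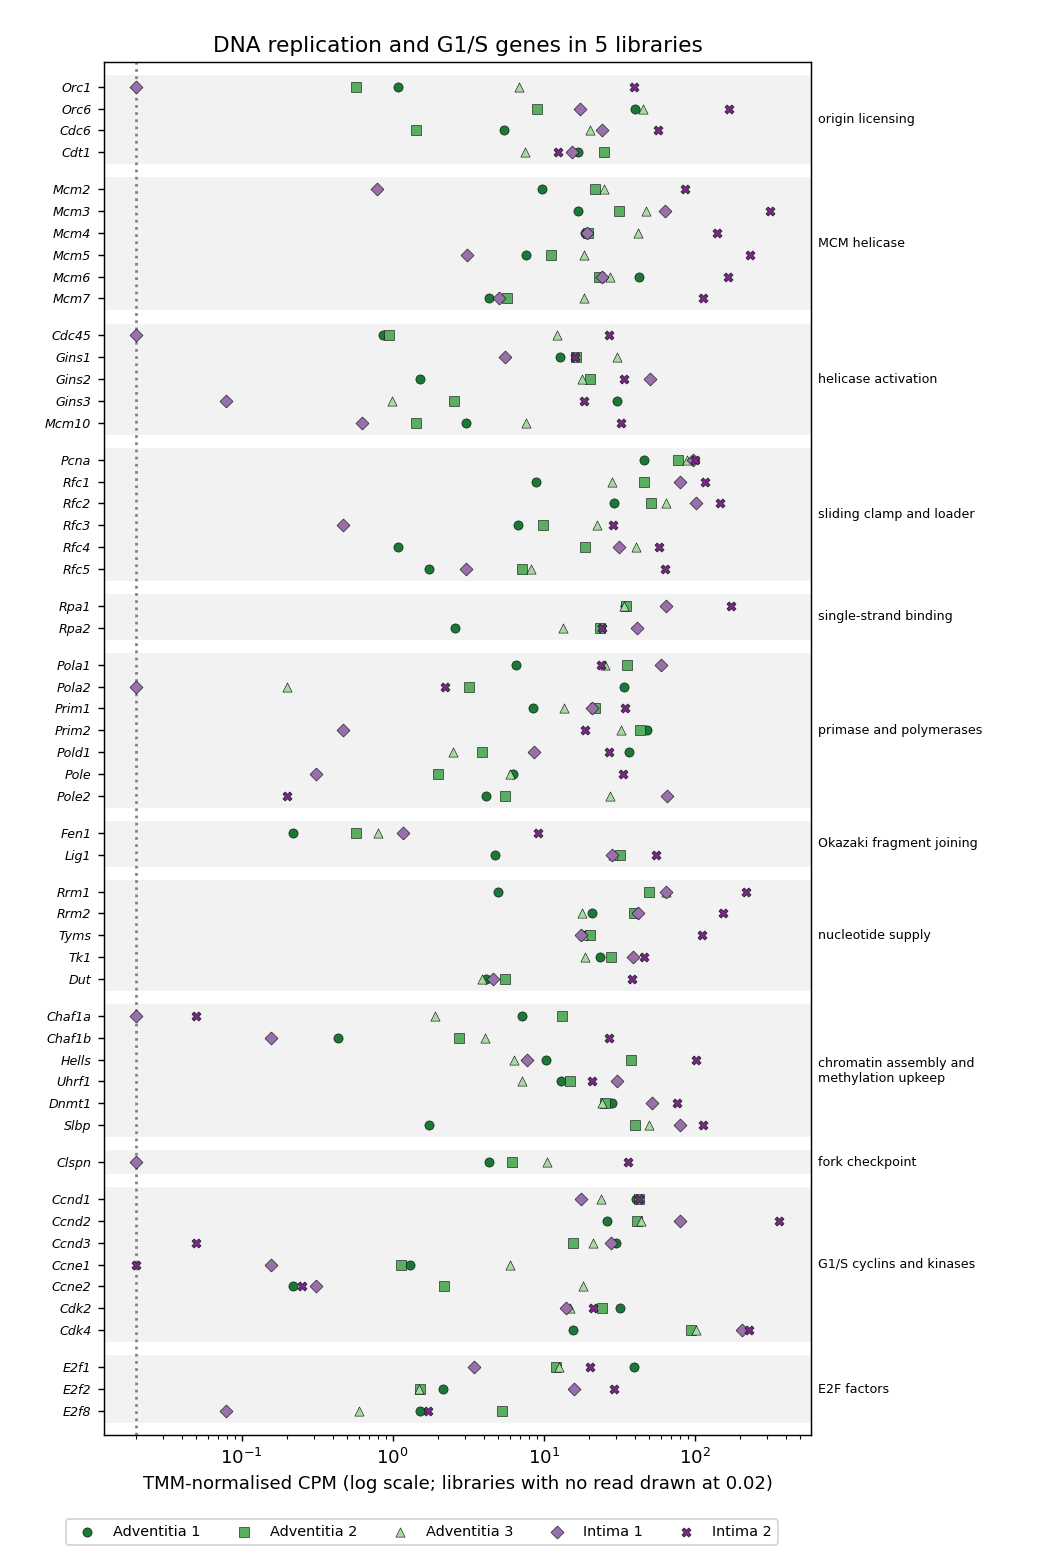
Level of each of the 54 genes in the 5 libraries, in TMM-normalised CPM on a log scale, by role; libraries with no read are drawn at 0.02. Intima 2 is the rightmost point of most genes, whereas intima 1 ranges from the leftmost point, as in Orc1 and Clspn, to values above adventitia, as in Cdk4 and Gins2.

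Origin licensing was led by Orc6, the smallest subunit of the origin recognition complex, with the highest mean RPKM of its role at 33.6. Orc6 was at 40.4, 9.09 and 45.5 CPM in adventitia 1 to 3 and 17.4 and 168 CPM in intima 1 and 2, so intima 1 lay within the adventitia range and intima 2 above it. Orc1, the largest subunit of the same complex, was at 1.08, 0.568 and 6.87 CPM in adventitia 1 to 3 and 0 and 39.6 CPM in intima 1 and 2. Intima 1 held 0 reads of Orc1 against 789 in intima 2, which makes Orc1 at least 169-fold lower in intima 1 at a floor of 3 reads. The fitted log2 difference of Orc1 was 2.79 ± 2.08 (SE, n = 3 and 2), and it was -0.52 in limma voom and -7.75 without intima 2. Cdc6, the ATPase that brings MCM rings to the origin, was at 5.43, 1.42 and 20.2 CPM in adventitia 1 to 3 and 24.3 and 56.8 CPM in intima 1 and 2, with both intima libraries above adventitia. Cdt1, its partner in loading, was at 16.9, 25.2 and 7.47 CPM in adventitia 1 to 3 and 15.3 and 12.4 CPM in intima 1 and 2 and showed no such order.

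All 6 subunits of the MCM helicase, the ring that unwinds DNA, were at least 4-fold higher in intima 2 than in intima 1. Of all measured genes 26.6% were. In intima 2 all 6 lay above the adventitia range, where 37.5% of all tested genes did. Their summed level was 100.5, 113.4 and 179.8 CPM in adventitia, 116.7 CPM in intima 1 and 1054 CPM in intima 2. Mcm3 was at 16.9, 31.4 and 47.5 CPM in adventitia 1 to 3 and 64.1 and 315 CPM in intima 1 and 2 and was the only subunit with intima 1 above adventitia as well. Its log2 difference was 2.56 ± 0.706 (SE, n = 3 and 2), with an adjusted p of 0.0972 in edgeR. Mcm5 was at 7.598, 11.3 and 18.6 CPM in adventitia 1 to 3 and 3.13 and 232 CPM in intima 1 and 2, so the intima libraries lay on either side of adventitia, 74.3-fold apart. The log2 difference of Mcm5 was 3.23 ± 1.17 (SE, n = 3 and 2) with an adjusted p of 0.142 in edgeR, and it was -1.92 without intima 2. Mcm7 was at 4.34, 5.68 and 18.5 CPM in adventitia 1 to 3 and 5.08 and 113 CPM in intima 1 and 2, 22.3-fold apart in the intima, with a log2 difference of 2.63 ± 1.197 (SE, n = 3 and 2) and an adjusted p of 0.223 in edgeR. That difference was -0.83 without intima 2.

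The other subunits showed the same order of the intima libraries. Mcm2 was at 9.77, 21.9 and 25.2 CPM in adventitia 1 to 3 and 0.782 and 86.6 CPM in intima 1 and 2, the widest gap of the ring at 111-fold between the intima libraries. Mcm4 was at 18.9, 19.7 and 42.4 CPM in adventitia 1 to 3 and 19.2 and 141 CPM in intima 1 and 2. Mcm6 was at 42.98, 23.4 and 27.5 CPM in adventitia 1 to 3 and 24.3 and 166 CPM in intima 1 and 2. For Mcm4 and Mcm6 intima 1 lay within the adventitia range, and for Mcm2 below it. The ring holds 1 copy of each subunit, and per length of transcript, in RPKM, the highest subunit exceeded the lowest 9.39, 6.53 and 3.03 times in adventitia 1 to 3, 73.6 times in intima 1 and 3.28 times in intima 2. In intima 1 the lowest subunit was Mcm2, at 0.198 RPKM, and the highest Mcm3, at 14.6 RPKM.

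**Figure D5:**
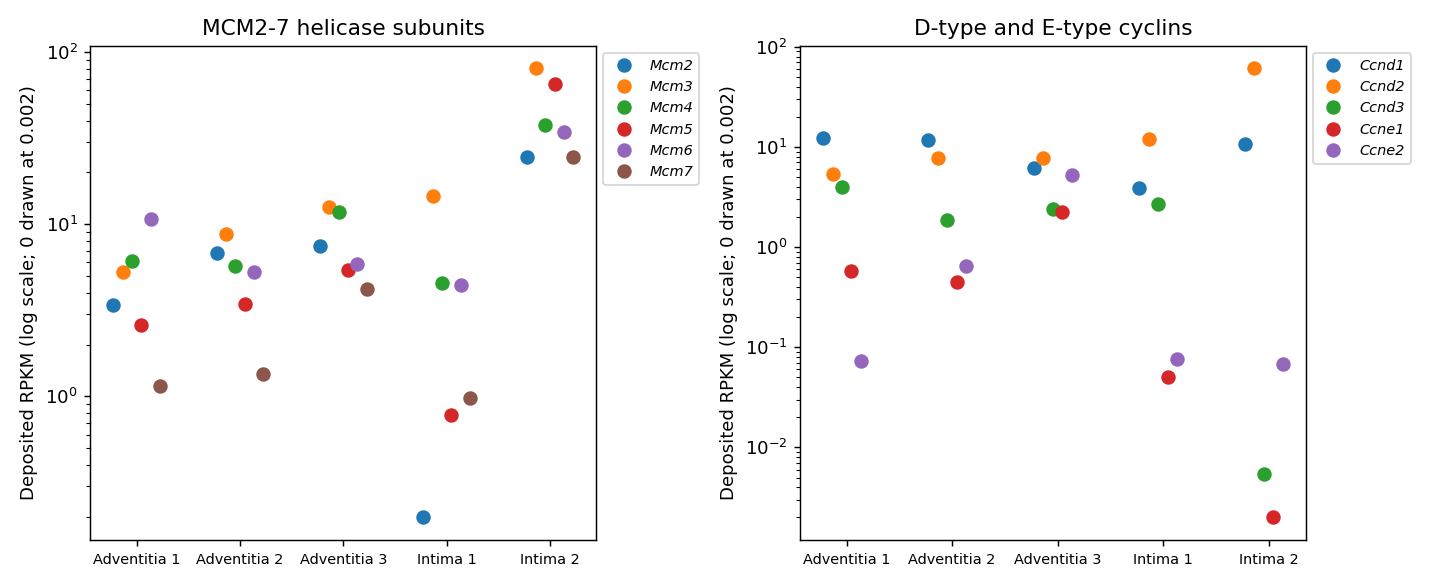
Deposited RPKM on a log scale of the 6 MCM subunits (left) and of the D-type and E-type cyclins (right) in each library; a value of 0 is drawn at 0.002. The MCM subunits are spread widely in intima 1 and sit close together and high in intima 2, where Ccnd2 is the highest cyclin and Ccnd3 is near the bottom.

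The bases in front of these genes were read from the RefSeq promoter table of build GRCm38.p6, the build of the files. A table entry was found for 45 of the 54 genes, with 54 windows of 250 bases before an annotated start; Gins1, Gins2, Mcm4, Rfc2, Prim2, Pole, Ccnd1, Ccnd2 and Ccne2 had none. The E2F element was searched on both strands as TTTCCCGC, TTTCGCGC, TTTGCCGC or TTTGGCGC. It was found in 12 windows, 22.2%, against 1.86% of all 32851 windows and 2.35% of the 21262 windows of coding genes. The 12 genes were Orc1, Cdc6, Mcm5, Mcm6, Mcm7, Gins3, Rfc3, Pola1, Hells, Uhrf1, Dnmt1 and Cdk2. The CCAAT box (CCAAT) was found in 32 windows, 59.3% against 33.8% of all windows, and the CHR element (TTTGAA) in 7, 13% against 16%. The median GC content of the members' windows was 61.2%, against 55.6% for coding genes. A match is a description of letters and does not show that a factor binds there.

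Genes with and without an E2F element both spanned a wide range between the intima libraries. With the element, 7 of 12 genes were at least 4-fold higher in intima 2 and 0 lower, with a median log2 ratio of 3.24. Without it, 14 of 31 measured genes were at least 4-fold higher and 2 lower, with a median of 1.77. Of all measured genes 26.6% were at least 4-fold higher in intima 2 and 16.7% lower. The median log2 difference between intima and adventitia was 1.44 with the element and 1.41 without it. Whether these sets differ was not tested.

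The stretches below are those of Mcm5 and Mcm6, which carry the element, of Mcm2 and Mcm3, which do not and were also higher in intima 2, and of Pole2, which lacks it and was lower in intima 2. Each is read 5′ to 3′ on the strand of its gene and ends before the first annotated exon, and capitals mark the E2F element. In Mcm5 2 overlapping matches on opposite strands end 146 and 142 bases before the start, and in Mcm6 2 overlapping matches end 103 and 99 bases before it and another 40 bases before it. The positions are chr8:75109259-75109467, plus strand for Mcm5, chr1:128359706-128359955, minus strand for Mcm6, chr6:88898781-88899030, minus strand for Mcm2, chr1:20820313-20820562, minus strand for Mcm3 and chr12:69228206-69228440, minus strand for Pole2.
Mcm5: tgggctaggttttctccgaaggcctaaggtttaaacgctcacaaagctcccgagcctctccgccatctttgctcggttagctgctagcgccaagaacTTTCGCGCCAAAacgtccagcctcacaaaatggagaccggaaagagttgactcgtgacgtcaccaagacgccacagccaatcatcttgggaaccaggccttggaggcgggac
Mcm6: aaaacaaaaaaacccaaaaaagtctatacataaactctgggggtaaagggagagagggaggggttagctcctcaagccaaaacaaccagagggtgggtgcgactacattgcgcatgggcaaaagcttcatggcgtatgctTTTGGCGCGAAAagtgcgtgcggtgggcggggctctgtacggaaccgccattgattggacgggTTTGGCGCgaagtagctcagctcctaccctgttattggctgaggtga
Mcm2: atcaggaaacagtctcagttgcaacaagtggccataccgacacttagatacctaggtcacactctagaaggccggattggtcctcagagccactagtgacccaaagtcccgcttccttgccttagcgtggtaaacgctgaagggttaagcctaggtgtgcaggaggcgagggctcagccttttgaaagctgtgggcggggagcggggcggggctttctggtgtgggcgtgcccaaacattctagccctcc
Mcm3: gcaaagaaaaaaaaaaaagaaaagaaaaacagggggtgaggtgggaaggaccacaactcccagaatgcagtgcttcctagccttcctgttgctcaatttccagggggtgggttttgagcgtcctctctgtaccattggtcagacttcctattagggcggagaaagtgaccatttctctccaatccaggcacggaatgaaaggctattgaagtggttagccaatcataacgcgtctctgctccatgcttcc
Pole2: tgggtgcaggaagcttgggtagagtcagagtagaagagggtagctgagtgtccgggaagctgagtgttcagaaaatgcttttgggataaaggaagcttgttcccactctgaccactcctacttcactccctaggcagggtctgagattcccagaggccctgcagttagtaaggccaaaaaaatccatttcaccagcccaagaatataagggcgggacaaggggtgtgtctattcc

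The factors that turn the loaded ring into a working helicase were mostly low or absent in intima 1. Cdc45, which joins the ring at the start of S phase, was at 0.868, 0.947 and 12.2 CPM in adventitia 1 to 3 and 0 and 26.99 CPM in intima 1 and 2. Intima 1 held 0 reads of it against 538 in intima 2, at least 115-fold lower. Gins3, a subunit of the GINS complex, was at 30.4, 2.56 and 0.996 CPM in adventitia 1 to 3 and 0.0782 and 18.4 CPM in intima 1 and 2, with 1 read in intima 1 against 367 in intima 2, a ratio of 235 (95% interval 42.2 to 9294, counting error only). With the floor of 3 reads that ratio was 78.4. Adventitia 1 was the highest library for Gins3, and the adventitia libraries spanned 30.5-fold. Mcm10, a scaffold that helps activate the helicase, was at 3.04, 1.42 and 7.67 CPM in adventitia 1 to 3 and 0.626 and 32.7 CPM in intima 1 and 2, 52.2-fold higher in intima 2.

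The other GINS subunits did not share that order. Gins1, the most abundant gene of this role per length at 10.9 RPKM on average, was at 12.8, 16.3 and 30.8 CPM in adventitia 1 to 3 and 5.55 and 16.1 CPM in intima 1 and 2, with intima 2 inside the adventitia range. Gins2 was at 1.52, 20.2 and 17.8 CPM in adventitia 1 to 3 and 50.5 and 33.9 CPM in intima 1 and 2, higher in both intima libraries than in adventitia and higher in intima 1 than in intima 2. The exons of Gse1 on the opposite strand cover 67.3% of the length of Gins2, and with no strand setting stated the reads of the pair cannot be told apart. Gse1 was counted with 69 reads over the 5 libraries and Gins2 with 1720.

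The sliding clamp had the smallest standard error of the set. Pcna, which encodes the ring that holds the polymerases on DNA, was at 46.2, 77.9 and 89.7 CPM in adventitia 1 to 3 and 97.2 and 101 CPM in intima 1 and 2, and the intima libraries were 1.04-fold apart. The processed copies Pcna-ps2 and Pcna-ps1 were counted with 80 and 0 reads in all, and reads shared between near-identical copies are uncertain. Rfc2, a small subunit of the clamp loader, had the highest mean RPKM of all 54 genes at 50.1. It was at 29.1, 51.6 and 64.2 CPM in adventitia 1 to 3 and 102 and 147 CPM in intima 1 and 2, with a log2 difference of 1.36 ± 0.5597 (SE, n = 3 and 2) and an adjusted p of 0.178 in edgeR. Rfc1, the large subunit, was at 8.901, 46.1 and 28.3 CPM in adventitia 1 to 3 and 80.2 and 117 CPM in intima 1 and 2, with a log2 difference of 1.82 ± 0.728 (SE, n = 3 and 2) and an adjusted p of 0.169 in edgeR. For both, each intima library lay above every adventitia library, and the intima libraries were 1.44-fold apart for Rfc2 and 1.46-fold for Rfc1.

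The remaining loader subunits spread more. Rfc3 was at 6.73, 9.85 and 22.5 CPM in adventitia 1 to 3 and 0.469 and 28.9 CPM in intima 1 and 2, below adventitia in intima 1 and above it in intima 2. Rfc5 was at 1.74, 7.199 and 8.27 CPM in adventitia 1 to 3 and 3.05 and 63.9 CPM in intima 1 and 2, 20.9-fold higher in intima 2. Rfc4 was at 1.08, 18.9 and 41.05 CPM in adventitia 1 to 3 and 31.5 and 58.04 CPM in intima 1 and 2 and varied 37.8-fold among the adventitia libraries alone. Thus within 1 complex the intima libraries lay close for Rfc1, Rfc2 and Rfc4 and far apart for Rfc3 and Rfc5. Exons of Eif4a2 on the opposite strand cover 12.6% of the length of Rfc4 and those of Wsb2 10.7% of Rfc5.

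Single-strand binding protein coats the unwound DNA. Rpa1, its large subunit, was at 34.7, 35.3 and 34.3 CPM in adventitia 1 to 3 and 64.5 and 174 CPM in intima 1 and 2, nearly level in adventitia and higher in both intima libraries. The log2 difference of Rpa1 was 1.77 ± 0.601 (SE, n = 3 and 2), with an adjusted p of 0.124 in edgeR. Rpa2, the middle subunit, was at 2.605, 23.6 and 13.3 CPM in adventitia 1 to 3 and 41.7 and 24.5 CPM in intima 1 and 2, again above adventitia in both intima libraries, but with intima 1 the higher one.

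Primase and the polymerases had similar sums in both intima libraries but differed widely gene by gene. The 7 genes summed to 145.0, 115.5 and 107.6 CPM in adventitia and to 156.2 and 140.6 CPM in intima 1 and 2. Pole2, an accessory subunit of the leading-strand polymerase epsilon, was at 4.12, 5.59 and 27.4 CPM in adventitia 1 to 3 and 66.03 and 0.201 CPM in intima 1 and 2. It had 844 reads in intima 1 and 4 in intima 2, 329-fold lower in intima 2. Pole, the catalytic subunit of the same polymerase, went the other way, at 6.296, 1.99 and 5.98 CPM in adventitia 1 to 3 and 0.313 and 33.8 CPM in intima 1 and 2 and with 4 reads in intima 1, 108-fold higher in intima 2.

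Polymerase alpha extends the primers. Pola1, its catalytic subunit, was at 6.51, 35.5 and 25.4 CPM in adventitia 1 to 3 and 59.7 and 24.03 CPM in intima 1 and 2, 2.48-fold higher in intima 1. Pola2, its accessory subunit, was at 34.1, 3.22 and 0.199 CPM in adventitia 1 to 3 and 0 and 2.21 CPM in intima 1 and 2, with 0 reads in intima 1 against 44 in intima 2, at least 9.40-fold lower. Pola2 also spanned 171-fold among the adventitia libraries, the widest range of the set there, and its log2 difference was -3.48 ± 2.46 (SE, n = 3 and 2), with an adjusted p of 0.447 in edgeR.

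Of the primase subunits, Prim2, the regulatory one, was at 48.6, 43.5 and 32.5 CPM in adventitia 1 to 3 and 0.469 and 18.8 CPM in intima 1 and 2, below adventitia in both intima libraries. The log2 difference of Prim2 was -2.11 ± 1.28 (SE, n = 3 and 2), with an adjusted p of 0.363 in edgeR. Prim1, the catalytic subunit, was at 8.47, 21.8 and 13.7 CPM in adventitia 1 to 3 and 21.1 and 34.6 CPM in intima 1 and 2, with intima 1 within the adventitia range. Pold1, the catalytic subunit of the lagging-strand polymerase delta, was at 36.9, 3.88 and 2.49 CPM in adventitia 1 to 3 and 8.68 and 27.04 CPM in intima 1 and 2, inside the wide adventitia range in both intima libraries.

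The enzymes that finish Okazaki fragments were Fen1, the flap nuclease, and Lig1, the ligase. Fen1 was at 0.217, 0.568 and 0.797 CPM in adventitia 1 to 3 and 1.17 and 9.13 CPM in intima 1 and 2, among the lowest genes of the set, with a log2 difference of 3.23 ± 1.56 (SE, n = 3 and 2) and an adjusted p of 0.247 in edgeR. Both intima libraries lay above adventitia, and adventitia 1 held 1 read of it. Exons of Gm10143 on the opposite strand cover 78.8% of the length of Fen1, and exons of Tmem258, with 10374 reads, share 5.37% of it, so Fen1 reads are uncertain. Lig1 was at 4.78, 32.2 and 28.6 CPM in adventitia 1 to 3 and 28.2 and 55.5 CPM in intima 1 and 2, with intima 1 within the adventitia range and intima 2 above it.

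All 5 genes of nucleotide supply were above the adventitia range in intima 2, where 37.5% of all tested genes were. Their summed level was 72.5 to 143.8 CPM in adventitia, 168.0 CPM in intima 1 and 570.7 CPM in intima 2. Rrm1, the large subunit of ribonucleotide reductase, was at 4.99, 50.1 and 64.9 CPM in adventitia 1 to 3 and 64.6 and 220.0 CPM in intima 1 and 2, the highest of the role per length at 19.5 RPKM. Rrm2, the small subunit, was at 20.8, 39.9 and 17.9 CPM in adventitia 1 to 3 and 41.9 and 154 CPM in intima 1 and 2, with a log2 difference of 1.90 ± 0.724 (SE, n = 3 and 2) and an adjusted p of 0.154 in edgeR. Intima 1 exceeded the adventitia maximum of Rrm2 only slightly. Tyms, which makes thymidylate, was at 19.1, 20.2 and 18.3 CPM in adventitia 1 to 3 and 17.6 and 112 CPM in intima 1 and 2, and Dut, which removes dUTP, was at 4.12, 5.59 and 3.88 CPM in adventitia 1 to 3 and 4.62 and 38.3 CPM in intima 1 and 2. For both, intima 1 was near the adventitia level and intima 2 several-fold higher, 6.38-fold for Tyms and 8.29-fold for Dut. Tk1, the thymidine salvage kinase, was at 23.4, 28.04 and 18.7 CPM in adventitia 1 to 3 and 39.3 and 46.4 CPM in intima 1 and 2, with both intima libraries above adventitia and close together.

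Chaf1a and Chaf1b, subunits of chromatin assembly factor 1, which places histones on new DNA, were unlike each other. Chaf1a was at 7.16, 13.2 and 1.89 CPM in adventitia 1 to 3 and 0 and 0.0502 CPM in intima 1 and 2. The intima held 1 read of it in all against 191 in adventitia, a ratio of 248 (95% interval 44.5 to 9794, counting error only). Its log2 difference of -7.59 ± 2.45 (SE, n = 3 and 2) had an adjusted p of 0.115 in edgeR, and that p ranged from 0.00167 to 0.394 over the other settings. Exons of Ubxn6 on the opposite strand cover 18.7% of the length of Chaf1a. Chaf1b was at 0.434, 2.75 and 4.08 CPM in adventitia 1 to 3 and 0.157 and 27.2 CPM in intima 1 and 2, with 2 reads in intima 1 against 542 in intima 2, a ratio of 174 (95% interval 48.1 to 1435). At the floor of 3 reads the ratio of Chaf1b was 116. Thus intima 2 was near 0 for Chaf1a and above the adventitia range for Chaf1b.

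Dnmt1, the enzyme that copies DNA methylation to the new strand, was at 28.2, 25.6 and 24.4 CPM in adventitia 1 to 3 and 52.3 and 76.00 CPM in intima 1 and 2, even in adventitia and higher in both intima libraries. Uhrf1, which guides Dnmt1 to hemimethylated sites, was at 13.03, 14.9 and 7.17 CPM in adventitia 1 to 3 and 30.4 and 20.9 CPM in intima 1 and 2, also above adventitia in both. Slbp, which binds the stem-loop of histone mRNAs, was at 1.74, 40.5 and 50.2 CPM in adventitia 1 to 3 and 79.4 and 114 CPM in intima 1 and 2, with the low adventitia 1 standing apart from the other 4 libraries. Hells, a chromatin remodeller needed for DNA methylation, was at 10.4, 37.7 and 6.38 CPM in adventitia 1 to 3 and 7.75 and 101 CPM in intima 1 and 2, 13.1-fold higher in intima 2. Clspn, the adaptor by which a stalled fork activates the checkpoint kinase Chk1, was at 4.34, 6.16 and 10.6 CPM in adventitia 1 to 3 and 0 and 35.97 CPM in intima 1 and 2. Intima 1 held 0 reads of Clspn against 717 in intima 2, at least 153-fold lower.

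Ccnd2, a D-type cyclin, had the lowest adjusted p of the set. It was at 26.3, 41.8 and 44.04 CPM in adventitia 1 to 3 and 80.5 and 362 CPM in intima 1 and 2, so both intima libraries lay above adventitia and were 4.501-fold apart. The log2 difference was 2.56 ± 0.638 (SE, n = 3 and 2) and the adjusted p 0.0868 in edgeR, and that p ranged from 0.00930 to 0.259 over the other settings. Ccnd1 was at 40.6, 42.6 and 23.8 CPM in adventitia 1 to 3 and 17.7 and 42.8 CPM in intima 1 and 2, with intima 1 below the adventitia range and intima 2 level with its top. Ccnd3 was at 29.96, 15.7 and 21.3 CPM in adventitia 1 to 3 and 28.01 and 0.0502 CPM in intima 1 and 2, with 358 reads in intima 1 and 1 read in intima 2, a ratio of 558 (95% interval 100.2 to 22050, counting error only). At the floor of 3 reads the ratio of Ccnd3 was 186. The copy Ccnd3-ps was counted with 10 reads in all.

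The mix of D-type cyclins was led by Ccnd2 in both intima libraries and by Ccnd1 in 2 of 3 adventitia libraries. Per length, Ccnd1 made up 56.9, 54.9 and 38.0% of the summed RPKM of the D-type cyclins in adventitia 1 to 3, and 21.0 and 14.9% in intima 1 and 2. Ccnd2 made up 24.8, 36.2 and 47.2% in adventitia and 64.4 and 85.1% in intima. Ccnd3 made up 18.3, 8.86 and 14.8% in adventitia, 14.6% in intima 1 and 0.00765% in intima 2. The sum itself was 21.8, 21.2 and 16.3 RPKM in adventitia and 18.7 and 71.6 RPKM in intima. The 2 groups did not overlap in the share of Ccnd1 or Ccnd2, but in CPM those of Ccnd1 did overlap. Of all tested genes 40.9% had no overlap between the groups in CPM. The shares are parts of 1 sum and so are not separate observations, and no test was run on them. Exons of LTO1 on the opposite strand cover 21.3% of the length of Ccnd1. LTO1 was counted with 794 reads against 1956 for Ccnd1, and with no strand setting stated the level of Ccnd1 and these shares are uncertain.

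The E-type cyclins had few reads in the intima. Ccne1 was at 1.303, 1.14 and 5.98 CPM in adventitia 1 to 3 and 0.157 and 0 CPM in intima 1 and 2, that is 2 reads in the intima libraries together against 78 in adventitia, a ratio of 50.6 (95% interval 14.0 to 418.1, counting error only). Its log2 difference was -5.11 ± 1.97 (SE, n = 3 and 2), with an adjusted p of 0.158 in edgeR. Ccne2 was at 0.217, 2.18 and 18.3 CPM in adventitia 1 to 3 and 0.313 and 0.251 CPM in intima 1 and 2, with 4 and 5 reads in the intima libraries and 1 read in adventitia 1. The log2 difference of Ccne2 was -4.58 ± 2.29 (SE, n = 3 and 2) and its adjusted p 0.263 in edgeR, and the adventitia libraries alone spanned 84.4-fold. Exons of Ints8 on the opposite strand cover 17.4% of the length of Ccne2.

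Cdk4, the partner of the D-type cyclins, was at 15.6, 94.9 and 102 CPM in adventitia 1 to 3 and 206 and 229 CPM in intima 1 and 2, alike in both intima libraries and above adventitia. The log2 difference of Cdk4 was 1.61 ± 0.672 (SE, n = 3 and 2), with an adjusted p of 0.183 in edgeR. Exons of Tspan31 on the opposite strand cover 18.6% of the length of Cdk4, and Tspan31 was counted with 6365 reads against 9304 for Cdk4. Cdk2, the partner of the E-type cyclins, was at 32.1, 24.3 and 15.04 CPM in adventitia 1 to 3 and 14.00 and 21.3 CPM in intima 1 and 2, with intima 1 just below the adventitia range and intima 2 within it.

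Among the E2F factors, E2f2, an activator, was at 2.17, 1.52 and 1.49 CPM in adventitia 1 to 3 and 15.8 and 29.3 CPM in intima 1 and 2, with the largest log2 difference in favour of the intima among the 54 genes, 3.70 ± 1.42 (SE, n = 3 and 2), and an adjusted p of 0.156 in edgeR. It was low in all adventitia libraries and higher in both intima libraries. E2f1, another activator, was at 39.9, 12.1 and 12.7 CPM in adventitia 1 to 3 and 3.44 and 20.2 CPM in intima 1 and 2, with intima 1 below the adventitia range and intima 2 within it. E2f8, an atypical member that represses, was the lowest gene of the set per length, at 0.354 RPKM on average. It was at 1.52, 5.305 and 0.598 CPM in adventitia 1 to 3 and 0.0782 and 1.71 CPM in intima 1 and 2, with 1 read in intima 1 against 34 in intima 2, a ratio of 21.8 (95% interval 3.91 to 861.0, counting error only). With the floor of 3 reads that ratio was 7.27. The log2 difference of E2f8 was -1.46 ± 1.66 (SE, n = 3 and 2), with an adjusted p of 0.672 in edgeR.

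Reads were missing unevenly as well. Of the 54 genes, 51, 54 and 53 had at least 3 reads in adventitia 1 to 3, 45 in intima 1 and 51 in intima 2, although intima 1 was deeper than every adventitia library. With every library thinned to 3941381 reads, 3, 2 and 2 of the 54 genes fell under 3 reads in adventitia, 13 in intima 1 and 5 in intima 2. Over all tested genes the same share was 5.46, 8.96 and 8.61% in adventitia and 29.5 and 24.5% in intima. The common biological coefficient of variation, fitted within each group, was 0.697 in adventitia and 1.22 in intima. The part of these losses in the single-gene differences was not tested.

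Other replication and S-phase genes, 40 in all, lay nearer to the background. Of 38 tested none was called in edgeR, 6 had an unadjusted p under 0.05 (15.8%, against 22.4% of all tested genes), and their median log2 difference was 0.77, with 27 above 0 (71.1%, against 53.4%). Between the intima libraries 12 of 36 measured genes were at least 4-fold higher in intima 2 (33.3%, against 26.6% of all measured genes) and 4 lower (11.1%, against 16.7%), with a median log2 ratio of 0.83. Ssrp1, a subunit of the histone chaperone FACT and the most abundant of them, was at 33.4, 85.5 and 117 CPM in adventitia 1 to 3 and 129 and 224 CPM in intima 1 and 2. The other origin recognition subunits, named after their values were seen, went both ways between the intima libraries. Orc2 was at 0, 2.56 and 13.8 CPM in adventitia 1 to 3 and 2.03 and 96.5 CPM in intima 1 and 2. Orc3 was at 9.55, 11.7 and 22.5 CPM in adventitia 1 to 3 and 0.157 and 17.96 CPM in intima 1 and 2, also higher in intima 2. Orc4 was at 19.1, 72.8 and 105 CPM in adventitia 1 to 3 and 139.6 and 40.5 CPM in intima 1 and 2 and Orc5 at 19.8, 7.39 and 14.7 CPM in adventitia 1 to 3 and 96.5 and 18.9 CPM in intima 1 and 2, 3.44-fold and 5.12-fold higher in intima 1.

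Of 33 other G1/S regulators and CDK inhibitors, 31 were tested and none was called in edgeR. An unadjusted p under 0.05 was found in 5 (16.1%, against 22.4% of all tested genes), and the median log2 difference was 0.47. Between the intima libraries 10 of 31 were at least 4-fold higher in intima 2 (32.3%, against 26.6% of all measured genes) and 4 lower (12.9%, against 16.7%). Btg2, an antiproliferative gene and the most abundant of them, was at 415, 861 and 856 CPM in adventitia 1 to 3 and 618 and 1962 CPM in intima 1 and 2. The following genes were named after their values were seen. Cdk6, the other partner of the D-type cyclins, was at 47.8, 98.04 and 246 CPM in adventitia 1 to 3 and 505 and 503 CPM in intima 1 and 2, with an adjusted p of 0.113 in edgeR, nearly equal in both intima libraries, as Cdk4 was. The inhibitor Cdkn1b was at 164, 211 and 158 CPM in adventitia 1 to 3 and 102 and 65.5 CPM in intima 1 and 2, and the inhibitor Cdkn2c, which binds Cdk4 and Cdk6, was at 32.1, 32.8 and 36.9 CPM in adventitia 1 to 3 and 0.157 and 4.01 CPM in intima 1 and 2. Both intima libraries lay below adventitia for these inhibitors, where this was so for 23.2% of all tested genes. The adjusted p in edgeR was 0.208 for Cdkn1b and 0.144 for Cdkn2c. The other tested CDK inhibitors of the list, Cdkn1a, Cdkn1c and Cdkn2d, overlapped between the groups. Cdkn1a was at 182.8, 342.0 and 192.6 CPM in adventitia 1 to 3 and 420.3 and 324.7 CPM in intima 1 and 2.

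The mitosis and G2/M genes, which act after replication, leaned to the intima as well. All 36 were tested, none was called in edgeR, and 10 had an unadjusted p under 0.05 (27.8%, against 22.4% of all tested genes). The log2 difference was above 0 in 34 (94.4%, against 53.4%), with a median of 1.53. Their summed level was 568.8 to 883.3 CPM in adventitia, 1455 CPM in intima 1 and 2618 CPM in intima 2. Both intima sums lay above adventitia, as did those of the 54 genes. The place of each intima library against the adventitia range was not counted for this list. Between the intima libraries 11 of 36 were at least 4-fold higher in intima 2 (30.6%, against 26.6% of all measured genes) and 1 lower (2.78%, against 16.7%), with a median log2 ratio of 1.02. Pttg1, which encodes securin and was the most abundant, was at 89.4, 144 and 131 CPM in adventitia 1 to 3 and 292 and 25.5 CPM in intima 1 and 2, the reverse of that order. Top2a, the topoisomerase of dividing cells, was at 16.3, 56.6 and 37.96 CPM in adventitia 1 to 3 and 103 and 394 CPM in intima 1 and 2 and Mki67, the proliferation marker, at 31.04, 25.9 and 42.6 CPM in adventitia 1 to 3 and 56.8 and 164 CPM in intima 1 and 2; both were named after their values were seen.

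Markers of other cell types moved with the layer and in part with the intima library. Endothelial markers summed to 28.7 to 50.2 CPM in adventitia and 777.2 and 925.9 CPM in intima. In edgeR 4 of 10 tested were called higher, Pecam1, Vwf, Emcn and Esam, where 0.522% of all tested genes were. The log2 difference was above 0 in 9 of these 10. The exception was Kdr, named after its values were seen. Kdr had 3 reads in intima 1 and 1 read in intima 2 (0.235 and 0.0502 CPM). Adventitia 1 to 3 held 1.085, 1.80 and 1.793 CPM of Kdr. Its log2 difference was -3.43 ± 1.34 (SE, n = 3 and 2), with an adjusted p of 0.162 in edgeR. Pecam1 was at 3.26, 4.45 and 0.797 CPM in adventitia 1 to 3 and 226 and 340.1 CPM in intima 1 and 2 and Vwf at 10.8, 25.2 and 16.5 CPM in adventitia 1 to 3 and 196 and 135 CPM in intima 1 and 2, whereas Cldn5 was at 0 in intima 1 and Robo4 at 0 in intima 2. Smooth muscle markers summed to 14.8 to 51.2 CPM in adventitia and 351.9 and 115.9 CPM in intima. Of 8 tested 1 was called higher, Tagln, where 0.522% of all tested genes were, and 5 had a log2 difference above 0. Of the intima sums Acta2 was 170.3 and 24.5 CPM and Tagln 123.8 and 52.1 CPM. Myh11, Cnn1, Des and Myocd had at most 6 reads in either intima library. These markers other than Tagln were named after their values were seen. Fibroblast markers summed to 660.5 to 1547 CPM in adventitia and 328.3 and 273.6 CPM in intima. Of 10 tested 1 was called lower, Lum, where 0.149% of all tested genes were. The part of these cells in the differences between layers was not tested.

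Most measured T and NK cell markers and neutrophil markers were higher in intima 2 than in intima 1. Of 8 T and NK markers measured, 7 were at least 4-fold higher in intima 2, and of 4 neutrophil markers measured all 4 were, where 26.6% of all measured genes were. Most of these markers had at most 3 reads in intima 1 and so counted as measured through intima 2 alone. Genes measured in that way could only come out higher in intima 2. Cd3e was at 0.434, 0.189 and 2.59 CPM in adventitia 1 to 3 and 0 and 12.2 CPM in intima 1 and 2, Cd3g at 0.651, 0.568 and 0.797 CPM in adventitia 1 to 3 and 0 and 10.2 CPM in intima 1 and 2 and Trac at 0, 0.189 and 0 CPM in adventitia 1 to 3 and 0 and 8.78 CPM in intima 1 and 2. The list summed to 12.6 to 24.1 CPM in adventitia and 128.7 and 101.9 CPM in intima, of which Cd4 alone was 128 and 39.2 CPM; 6 of its 13 genes were at 0 in intima 1 and 5 in intima 2, and none of 6 tested was called in edgeR. Neutrophil markers summed to 60.4 to 108.8 CPM in adventitia, 5.40 CPM in intima 1, where 6 of 9 were at 0, and 105.6 CPM in intima 2, where 3 were at 0. B cell markers summed to 227.5 to 775.4 CPM in adventitia and 1125 and 926.8 CPM in intima, with 3 and 7 of 9 at 0. Of these intima sums Ighm alone was 1100 and 898.7 CPM. Only 3 of the 6 B cell markers tested had a log2 difference above 0, and none was called in edgeR. Monocyte markers summed to 2685 to 2829 CPM in adventitia and 1312 and 1657 CPM in intima, with Ace called higher and Plac8 lower in edgeR. Dendritic cell markers summed to 298.2 to 476.9 CPM in adventitia and 85.3 and 46.0 CPM in intima, with Cd209a called lower. Red cell markers summed to at most 0.897 CPM in adventitia and 0.0782 and 3.11 CPM in intima, and none of these 6 genes passed the filter. The part of these cells in the gap between the intima libraries was not tested.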

How the data were processed

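Poly-A RNA of sorted cells was converted to cDNA (SMARTer Ultra Low kit), amplified over 12 PCR cycles and read as single reads of 50 bases, per the labels' protocols. Named tools are STAR 2.0.4b, featureCounts 1.4.5 and Subread, per the submitters' processing notes; the strand setting and annotation release are not given in the sources used here. The authors deposited 1 table per library with read counts, CPM and RPKM per Ensembl ID on GRCm38. The deposited CPM and RPKM were recomputed from the counts with 0 mismatches at a relative tolerance of 1e-06, so they scale by library size and gene length alone. Symbols were found for 40254 of 41388 IDs.

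Counts were tested with edgeR 4.0.16 in R 4.3.3 (glmQLFit and glmQLFTest, TMM, filterByExpr with a minimum count of 10 and total of 15) over all 5 libraries and 13408 genes, with Benjamini-Hochberg adjustment over all of them and a threshold of 0.05; the script was tested on simulated data. CPM in the text is TMM-normalised unless RPKM is named. A standard error is the log2 difference divided by the square root of F. A floor of 3 reads equals 0.761 CPM at the lowest depth and 0.144 CPM at the highest. Intervals are exact at 95% and, since PCR reads lack molecular identifiers, cover counting error only. Ratios printed with an interval use the reads as counted, without the floor. Alternatives were DESeq2 1.42.0, limma 3.58.1 voom, other scalings and filters, thinning, the replicate block and leaving out each library.

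The genes and lists were chosen with earlier results of these data known. Any of the 54 genes could be named; of other genes, Apoe, Fcgr1 and Itgax, up to 2 called genes per direction of a list or its most abundant gene, and others said to be named after their values were seen. Ighd was not matched to an ID. Promoter sequences are those of RefSeq, GRCm38.p6; 48 of the 54 windows ran in the direction of a GENCODE transcript at their start.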

Additional observations from a re-analysis of the deposited data

How the results depend on the processing

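The count of the 54 genes called between intima and adventitia was 0 in edgeR and 0 under the other scalings, the stricter filter, the robust fit and thinning. It was 3 with genes kept from 1 read on, 1 in limma voom and 4 in DESeq2, and it ranged from 0 to 4 when 1 library was left out, with 4 reached without intima 1. The median log2 difference was 1.39 and ranged from -0.16, without intima 2, to 1.64, without adventitia 3. Over all tested genes the medians of these fits were 0.14, -0.62 and 0.21. Without intima 1 the median was 1.505 for the 54 genes and -0.54 over all tested genes. Single genes reversed in 4 cases. Orc1 was at -0.52 in limma voom, and without intima 2 Orc1 was at -7.75, Mcm5 at -1.92 and Mcm7 at -0.83; leaving out 1 library took Orc1 from -7.75 to 4.53, Mcm5 from -1.92 to 4.07 and Mcm7 from -0.83 to 3.51. The cause was not tested. Of the other values of the 18 genes followed through the settings, 245 kept their direction and their side of the threshold and 11 passed it. The number of genes at least 4-fold apart between the intima libraries was 27 and ranged from 25, with thinning, to 28, with library size alone. Over all measured genes the share was 43.3% and in those settings 40.4 and 43.8%. At 8-fold 19 of 51 genes passed, where 30.8% of all measured genes did. At 2-fold 35 of 51 passed, where 65.9% did. The median over all tested genes shifted from 0.14 with TMM to -0.35 with upper-quartile scaling, where that of the 54 genes was 0.94. With the replicate number as a block, 0 of the 54 genes were called, with a median of 1.12. The groups share 2 replicate numbers, and the deviations of same-numbered libraries from their group means correlated at 0.035 and 0.0057. With 2 intima libraries the deviations of intima 2 are the negative of those of intima 1. These values therefore cannot exclude a pairing. The numbers were not taken as a pairing in the main fit. Depth limits the low genes: a gene under 3 reads cannot be told from an absent one.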
